A study of Mus musculus with 32 samples.

Results

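Ramp3 encodes receptor activity-modifying protein 3, and it was followed here across IL-4-treated macrophages and immature dendritic cells (iDCs) from mice that carried or lacked a *Pparg* allele open to Cre deletion. RAMPs are small proteins that cross the membrane a single time and travel to the cell surface with class B receptors, whose ligand preference they set. Paired with RAMP1, the calcitonin receptor-like receptor Calcrl binds the neuropeptide CGRP, and paired with RAMP2 or RAMP3 it binds adrenomedullin, a peptide known for widening vessels and for damping inflammatory responses. These receptors signal through the stimulatory G protein Gs, whose alpha subunit is encoded by Gnas, to cyclic AMP. IL-4 acts on macrophages through STAT6 and drives alternative activation. PPARγ is a nuclear receptor that binds DNA with RXR and is activated by rosiglitazone (RSG).

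The gene was found by matching probe identifiers, without their version, to the mouse RefSeq transcripts and synonyms of Ramp3. This gave 1 probe, listed under NM_019511.1, of 33012 noncontrol probes per array. Ramp3 was chosen by its log2 signal and signal-to-noise ratio (S/N) in the 8 groups of these same arrays. Its levels and differences are therefore given as a description with no test, and nothing is supported by them.

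Bone marrow of 8 C57Bl/6 mice was used, 4 Pparg+/- LysCre (mice 1, 2, 3 and 4) and 4 Pparg fl/- LysCre (mice 5, 6, 7 and 8). All 8 carried LysCre, which expresses Cre recombinase from the lysozyme gene in myeloid cells, and a null *Pparg* allele. Pparg+/- LysCre cells kept a wild-type allele beside it, so the controls were heterozygous and not wild-type. In Pparg fl/- LysCre cells the other allele was flanked by loxP sites and was open to deletion where Cre was active. The extent of recombination was not analysed here, and no probe of *Pparg* was among the named ones, so the genotype labels were not checked against its level here. Cells of each mouse were grown for 9 days either as macrophages, with 20 ng/ml M-CSF and 20 ng/ml IL-4, or as iDCs, with 20 ng/ml GM-CSF and 20 ng/ml IL-4. Vehicle (DMSO:ethanol) or 1 μM RSG was added after plating, which made 4 cultures and 4 arrays per mouse, and 8 groups of 4. Total RNA was copied into digoxigenin-labeled cRNA and read by chemiluminescence on single-color arrays. The cultures are bulk populations, in which fewer cells expressing a gene and less RNA per cell cannot be told apart. None of the 9 macrophage markers and none of the 12 DC markers listed for this work had a named probe, so the cell type labels were not checked against them.

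Detection required an S/N of 3 or more, and between 13595 and 16683 probes (41.2% to 50.5%) were detected per array. Signals were put on the log2 scale and quantile normalized, and 16620 probes detected on at least 3 arrays of a group of 4 were used as the background. Ramp3 was detected on all 32 arrays, with an S/N of 8.86 to 81.8 (median 31.6). Precision is limited by there being 4 arrays per group. A quality flag other than 0 was set for Ramp3 on 1 array, the vehicle-treated iDCs of mouse 5, where the flag was 64; what this flag stands for is not given in the sources used here. Arrays were scanned on 4 days with 2 mice of 1 genotype each, so scan day and genotype cannot be told apart. Among Pparg fl/- LysCre macrophages, those of mouse 5 had the highest Ear1 and the lowest Hba-a1 levels, which are given below. Genotype differences of Ramp3 are given with and without this mouse, and those of Ear1 and Hba-a1 only with it.

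Ramp3 lies on chromosome 11 of the mouse genome, at chr11:6658506-6677478 in GRCm38.p6. The promoter window runs from 250 bases before to 50 after a start at base 6658533, which is 27 bases inside these gene bounds, and is shown because the treatments act through transcription factors, PPARγ with RSG and STAT6 with IL-4. The sequence is the plus strand of chr11:6658283-6658582 from RefSeq, and the capitals mark GC box cores (GGGCGG on either strand).

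Ramp3 promoter: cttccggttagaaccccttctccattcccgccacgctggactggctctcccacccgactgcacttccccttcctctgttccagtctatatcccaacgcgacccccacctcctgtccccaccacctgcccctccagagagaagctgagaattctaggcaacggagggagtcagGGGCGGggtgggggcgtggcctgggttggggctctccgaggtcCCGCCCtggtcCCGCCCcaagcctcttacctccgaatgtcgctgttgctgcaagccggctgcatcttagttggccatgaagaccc

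This window held 3 GC box cores, which 35.7% of the 32851 promoter windows of this length held at least once, and its bases were 63.7% G or C. It held no nuclear receptor half-site (AGGTCA, found in 16.3% of the windows) on either strand. The direct repeat of that half-site with a spacer of a single base (AGGTCANAGGTCA, which contains the half-site, in 0.0396%) and the STAT6 spacing (TTCNNNNGAA, in 6.95%) were not found either. No match says only that these letters are not in this window, and a match is not a bound site.

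Ramp3 was higher in iDCs than in macrophages. In vehicle-treated Pparg+/- LysCre cells the log2 signal was 11.04, 10.09, 10.88 and 10.60 in the macrophages of mice 1, 2, 3 and 4, and 13.21, 13.33, 13.67 and 12.94 in their iDCs. The lowest iDC culture lay well above the highest macrophage culture, and the groups did not overlap. Within mice the difference was 2.64 ± 0.48 (SD, n = 4) on the log2 scale, which is 6.23-fold. In vehicle-treated Pparg fl/- LysCre cells the signal was 10.74, 11.15, 10.82 and 11.45 in the macrophages of mice 5, 6, 7 and 8, and 14.32, 13.88, 13.86 and 14.12 in their iDCs. Here too all iDC cultures were above all macrophage cultures, with a within-mouse difference of 3.00 ± 0.42 (SD, n = 4), or 8.00-fold.

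The cell type difference was present with RSG as well. In RSG-treated Pparg+/- LysCre cells the signal was 10.52, 10.25, 10.12 and 10.09 in macrophages and 13.01, 12.38, 12.10 and 11.97 in iDCs of mice 1, 2, 3 and 4, a difference of 2.12 ± 0.27 (SD, n = 4), or 4.34-fold. In RSG-treated Pparg fl/- LysCre cells it was 9.83, 10.30, 10.53 and 10.62 in macrophages and 12.36, 13.41, 13.70 and 12.83 in iDCs of mice 5, 6, 7 and 8, a difference of 2.76 ± 0.46 (SD, n = 4), or 6.76-fold. In neither pair did the groups overlap, and Ramp3 was higher in iDCs in 16 of 16 within-mouse comparisons, by 1.88 to 3.58 on the log2 scale (3.68-fold to 11.9-fold).

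Of all probes used as the background, 20.3% were higher in iDCs without overlap in vehicle-treated Pparg+/- LysCre cells, 21.1% with RSG, 14.5% in vehicle-treated Pparg fl/- LysCre cells and 12.4% with RSG. Lack of overlap between cell types was thus common among probes, and it is given for Ramp3 as a description only. The size of the Ramp3 difference was exceeded in the same direction by 2.04% and 3.57% of the probes in Pparg+/- LysCre cells (vehicle and RSG) and by 1.49% and 1.46% in Pparg fl/- LysCre cells. The cultures differ in M-CSF against GM-CSF as well as in cell type, and the design does not separate these.

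**Figure D1:**
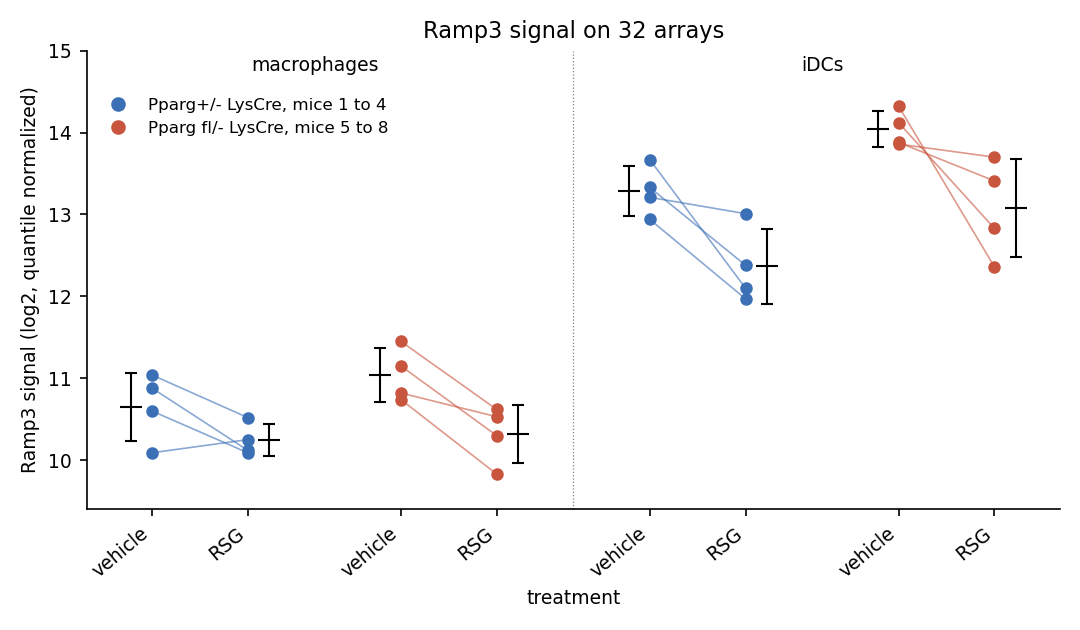
Ramp3 signal (log2, quantile normalized) on the 32 arrays, by cell type, genotype and treatment. Each point is the culture of 1 mouse, lines join the cultures of a mouse, and black bars are the mean ± SD of 4 mice. All iDC cultures lie above all macrophage cultures (lowest iDC value 11.97, highest macrophage value 11.45), and 15 of the 16 lines fall from vehicle to RSG.

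**Figure D2:**
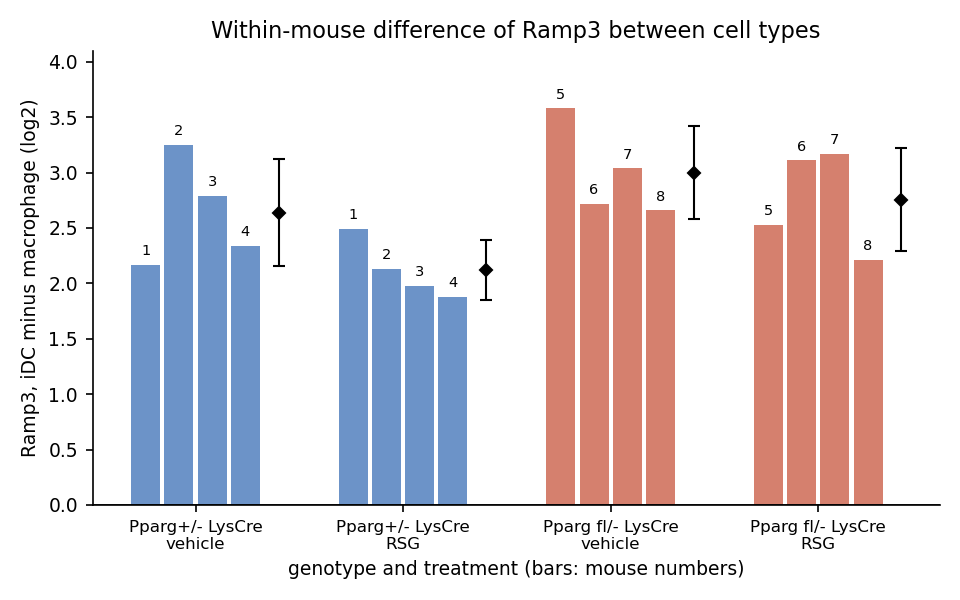
Difference in Ramp3 between the iDCs and macrophages of the same mouse (log2), by genotype and treatment. Each bar is the mouse numbered on it, and the diamond is the mean ± SD of 4 mice. Bars run from 1.88 (mouse 4, RSG) to 3.58 (mouse 5, vehicle), with none at or below 0.

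As deposited and before any scaling, the Ramp3 signal ran from 781 (RSG-treated macrophages of mouse 4) to 32692 (vehicle-treated iDCs of mouse 5). Its median was 1570 and 2327 in vehicle-treated macrophages of Pparg+/- LysCre and Pparg fl/- LysCre mice, and 9214 and 16810 in their iDCs. The order of the groups in these medians was as in the log2 means except that RSG-treated iDCs of Pparg fl/- LysCre mice (11115) came before vehicle-treated iDCs of Pparg+/- LysCre mice. The array with the highest Ramp3 signal also had the highest median over all probes of the 32 arrays (613.5, against 269.7 to 597.5 on the others). The part of overall brightness in the unscaled values was not tested, and on the normalized scale the same culture was still the highest, at 14.32.

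In the order of the 8 group means, the 4 iDC groups came first. Vehicle-treated iDCs of Pparg fl/- LysCre mice were highest (14.04 ± 0.22, SD, n = 4), followed by vehicle-treated iDCs of Pparg+/- LysCre mice (13.29 ± 0.30, SD, n = 4). These neighbours did not overlap on the quantile-normalized scale but did in the signals as deposited, and the gap of 0.75 between their means was larger than their pooled SD of 0.27. RSG-treated iDCs of Pparg fl/- LysCre mice (13.08 ± 0.60, SD, n = 4) came next, a gap of 0.21 that is within the pooled SD of 0.47. RSG-treated iDCs of Pparg+/- LysCre mice (12.37 ± 0.46, SD, n = 4) were lower by 0.71, with overlapping values and a pooled SD of 0.53. A gap of 1.32 without overlap then separated iDCs from macrophages.

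Among macrophages, all neighbouring groups overlapped. Vehicle-treated Pparg fl/- LysCre macrophages were at 11.04 ± 0.33 (SD, n = 4) and vehicle-treated Pparg+/- LysCre macrophages at 10.65 ± 0.42 (SD, n = 4). RSG-treated macrophages were at 10.32 ± 0.35 (Pparg fl/- LysCre, SD, n = 4) and 10.25 ± 0.20 (Pparg+/- LysCre, SD, n = 4), a gap of 0.07 that is well within their pooled SD of 0.29. Over the 32 arrays, cell type took 83.7% of the sum of squares of the log2 signal, RSG 6.87%, genotype 2.83%, interactions of these factors 1.35%, the mouse within its genotype 1.8% and the remaining spread 3.45%.

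Ramp3 was lower with RSG than with vehicle in 15 of 16 within-mouse comparisons, in both cell types and in both genotypes. In iDCs of Pparg+/- LysCre mice the change was -0.20, -0.95, -1.57 and -0.97 on the log2 scale in mice 1, 2, 3 and 4, with a mean of -0.92 ± 0.56 (SD, n = 4), which is 1.90-fold lower. The signal was lower in each mouse, although mouse 1 changed little and its RSG-treated culture (13.01) overlapped the vehicle group. In iDCs of Pparg fl/- LysCre mice the change was -1.96, -0.47, -0.15 and -1.28 in mice 5, 6, 7 and 8, with a mean of -0.97 ± 0.81 (SD, n = 4), or 1.95-fold lower. All 4 mice changed downward and the groups did not overlap, but the size differed widely between mice, and without mouse 5 the mean was -0.64 ± 0.58 (SD, n = 3), or 1.55-fold lower.

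In macrophages the mean differences over all 4 mice were in the same direction and smaller. In Pparg+/- LysCre macrophages the change was -0.52, 0.16, -0.76 and -0.50 in mice 1, 2, 3 and 4, a mean of -0.40 ± 0.40 (SD, n = 4), or 1.32-fold lower. The groups overlapped and mouse 2 went the other way, so this mean is no larger than the spread between mice. In Pparg fl/- LysCre macrophages the change was -0.91, -0.85, -0.29 and -0.83 in mice 5, 6, 7 and 8, a mean of -0.72 ± 0.29 (SD, n = 4), or 1.65-fold lower. All 4 mice were lower and the groups did not overlap, with mouse 7 nearest to 0. Without mouse 5 the mean was -0.66 ± 0.32 (SD, n = 3), which is not smaller than the -0.64 in iDCs without that mouse.

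Among all background probes, 17.4% were lower in all 4 mice with RSG in Pparg+/- LysCre iDCs, 12.2% in Pparg fl/- LysCre iDCs and 8.90% in Pparg fl/- LysCre macrophages. Lower without overlap were 2.50% in Pparg fl/- LysCre iDCs and 0.987% in Pparg fl/- LysCre macrophages. The Ramp3 change was exceeded in the downward direction in macrophages by 14.5% (Pparg+/- LysCre) and 3.32% (Pparg fl/- LysCre) of the probes, and in iDCs by 3.95% and 2.02%. Within scan days, the mean change of the 2 mice was below 0 on each day in each cell type, from -0.18 (day 1, macrophages) to -1.27 (day 2, iDCs).

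**Figure D3:**
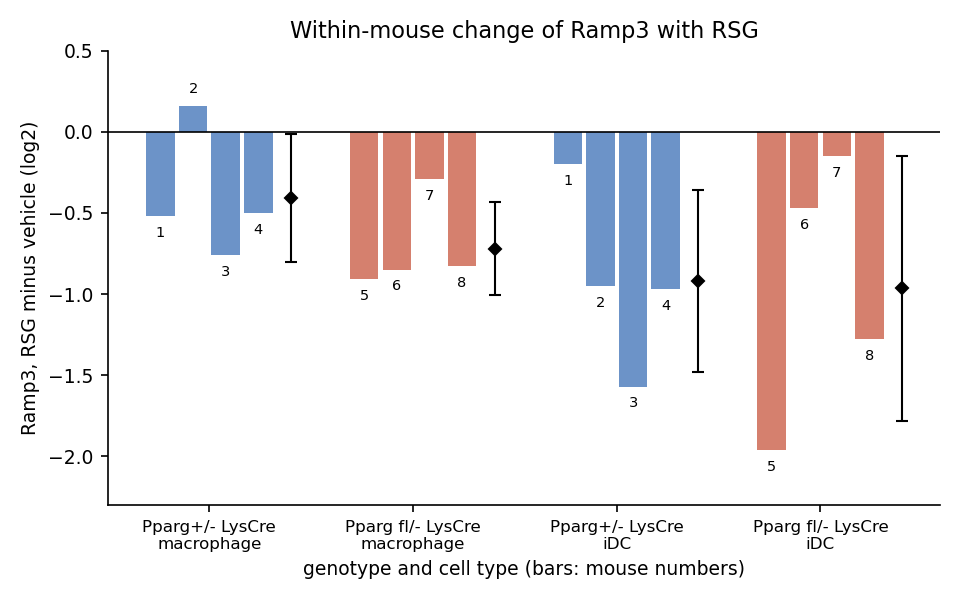
Change of Ramp3 with RSG in the cells of each mouse (log2, RSG minus vehicle), by genotype and cell type. Each bar is the mouse numbered on it, the diamond is the mean ± SD of 4 mice, and the line at 0 is no change. Only mouse 2 in macrophages (0.16) lies above 0, and mouse 5 in iDCs (-1.96) lies lowest.

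The number of detected probes moved with RSG in macrophages as well. Its median was 15511.5 with vehicle and 13946 with RSG in macrophages of Pparg+/- LysCre mice, and 15764.5 and 14934.5 in those of Pparg fl/- LysCre mice. In iDCs, where Ramp3 was lower with RSG as well, this median was higher with RSG, going from 14978.5 to 15529 and from 15009.5 to 15448. Mouse 5, which had the lowest Ramp3 change in iDCs (-1.96), went the other way, from 14568 to 13595 detected probes, and its RSG-treated iDC array had the fewest detected probes and the lowest median signal (269.7) of the 32. Its part in the Ramp3 values was not tested.

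Ramp3 was thus lower with RSG also in Pparg fl/- LysCre cells, in which the gene of PPARγ was targeted. The genotype difference in the change (Pparg fl/- LysCre minus Pparg+/- LysCre) was -0.04 in iDCs, with a pooled SD of 0.70 between mice, and -0.32 in macrophages, with a pooled SD of 0.35. Both are within the spread between mice. In iDCs the difference was 0.29 without mouse 5, -0.17 under median scaling and -0.31 without scaling, and in macrophages it was -0.25 without mouse 5, -0.13 without mouse 2 and -0.46 without mouse 7. Between cell types the change was lower in iDCs than in macrophages by 0.52 ± 0.62 (SD, n = 4) in Pparg+/- LysCre mice, in 3 of 4 mice. This difference was -0.32 without mouse 2, -0.80 without mouse 1, and -0.23 both under median scaling and with the deposited ratios. In Pparg fl/- LysCre mice it was lower by 0.24 ± 0.64 (SD, n = 4), in 2 of 4 mice, and without mouse 5 it was 0.02 higher. Under median scaling and with the deposited ratios that difference was -0.12. These differences were not tested and do not show that the responses were alike.

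In vehicle-treated iDCs Ramp3 was 0.75 higher on the log2 scale (1.69-fold) in Pparg fl/- LysCre than in Pparg+/- LysCre mice, with no overlap between the quantile-normalized groups (13.86 to 14.32 against 12.94 to 13.67). The groups did overlap in the signals as deposited, in the deposited ratios and under median scaling (13.65 to 14.31 against 12.84 to 13.81), where mouse 3 lay above some Pparg fl/- LysCre mice. Higher without overlap in this comparison were 6.19% of all background probes, and without mouse 5 the difference was 0.66 (n = 3 against 4). In RSG-treated iDCs the difference was 0.71 (1.64-fold) with overlapping groups and a pooled SD of 0.53, and 0.95 without mouse 5.

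In macrophages the genotype differences were smaller. With vehicle Ramp3 was 0.39 higher (1.31-fold) in Pparg fl/- LysCre mice, with a pooled SD of 0.38 and overlapping groups. This difference was 0.20 without mouse 2, the Pparg+/- LysCre mouse with the lowest Ramp3 value (10.09), and 0.49 without mouse 5. Without scaling between arrays this difference was 0.60. With RSG it was 0.07 with a pooled SD of 0.29. It was 0.24 without mouse 5, and its sign turned without mouse 8 (-0.03). Under median scaling and with the deposited ratios it was 0.18, and without scaling 0.20. The vehicle arrays are shared between these differences and the RSG changes, so the values are not independent of each other.

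Only a few genes around Ramp3 could be examined. Of the 102 genes listed for the calcitonin family, Gs and cAMP signaling, receptor desensitization, other RAMP partners, the IL-4 and STAT6 response and PPARγ targets, 2 had a named probe, Ramp1 and Gnas. Neither Calcrl nor adrenomedullin (Adm) nor Ramp2 was among them. Both genes were tested with limma together with all 16620 probes, and a gene was called where its change reached 1.5-fold with an adjusted p (Benjamini-Hochberg) under 0.05.

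Ramp1, the subunit of the CGRP receptor, was higher in iDCs too. In vehicle-treated Pparg+/- LysCre iDCs its signal was 9.60, 9.86, 8.75 and 8.71 (log2) in mice 1, 2, 3 and 4, detected in all of them. In the macrophages of the same mice it was listed at 7.40, 6.76, 6.89 and 8.23 but was not well above background on any of these arrays, so the macrophage values give only a bound. Ramp1 was therefore at least 3.75-fold higher in iDCs. It passed the filter on low signals through iDC groups alone, so its call in this comparison (1 of 2 pathway genes, beside 28.9% of all probes) is given as a description. Over all arrays Ramp1 was detected on 15 of 16 iDC arrays and 1 of 16 macrophage arrays.

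With RSG, Ramp1 in iDCs did not move as Ramp3 did. In Pparg+/- LysCre iDCs the within-mouse change was -0.34, 0.25, 1.55 and 2.11 in mice 1, 2, 3 and 4, and the fitted change of 0.89 ± 0.44 (SE) was not called (adjusted p = 0.258 from limma). In Pparg fl/- LysCre iDCs it was 0.20, 0.57, -0.02 and 2.32 in mice 5, 6, 7 and 8, and the fitted change of 0.77 ± 0.44 (SE) was not called (adjusted p = 0.575 from limma). The mean was upward in both genotypes, with the mice widely spread and 1 of 4 going the other way in each. The fitted change was 0.49 without mouse 4 in Pparg+/- LysCre iDCs and 0.25 without mouse 8 in Pparg fl/- LysCre iDCs. The genotype difference in vehicle-treated iDCs was -0.52 ± 0.44 (SE, adjusted p = 0.515 from limma), and it was -0.04 without mouse 8, whose culture was at 7.26 and not detected. In macrophages Ramp1 was not well above background on 15 of 16 arrays, and no fold change is given.

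Gnas, which encodes the Gs alpha subunit downstream of these receptors, was detected on all 32 arrays, and its groups overlapped. Its group means ran from 11.85 ± 0.41 (vehicle-treated Pparg fl/- LysCre iDCs, SD, n = 4) to 12.22 ± 0.15 (RSG-treated Pparg fl/- LysCre macrophages, SD, n = 4). In none of the 7 comparisons was it called. The cell type difference in vehicle-treated Pparg+/- LysCre cells was -0.01 ± 0.18 (SE, adjusted p = 0.963 from limma).

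Neither pathway gene was called for RSG or genotype by limma, nor by the methods' own test run on the same values. The latter called few probes at all in some comparisons, 0 of 16620 for RSG in Pparg fl/- LysCre iDCs, and 4 and 28 for genotype in macrophages and iDCs. For RSG in Pparg+/- LysCre cells it called 1.2% of all probes in macrophages and 5.88% in iDCs. By limma the calls for RSG were 0 of 2 beside 1.20% of all probes in Pparg+/- LysCre macrophages, 6.01% in Pparg+/- LysCre iDCs and 0.692% in Pparg fl/- LysCre iDCs. In Pparg fl/- LysCre macrophages 0 of all probes (0%) were called by limma or by the methods' test, while 497 had an unadjusted p under 0.05. For genotype limma called 0 of 2 beside 0.156% of all probes in vehicle-treated macrophages and 2.83% in vehicle-treated iDCs. At an unadjusted p under 0.05, 1 of the 2 genes passed for RSG in Pparg+/- LysCre macrophages (Ramp1, with an S/N under 3 on all arrays of both groups) and none in the other RSG and genotype comparisons. Of all 16620 probes, 1938 passed in that comparison. For RSG in iDCs 3581 (Pparg+/- LysCre) and 1814 (Pparg fl/- LysCre) passed, and for genotype 3891 in vehicle-treated macrophages and 3771 in vehicle-treated iDCs.

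**Figure D4:**
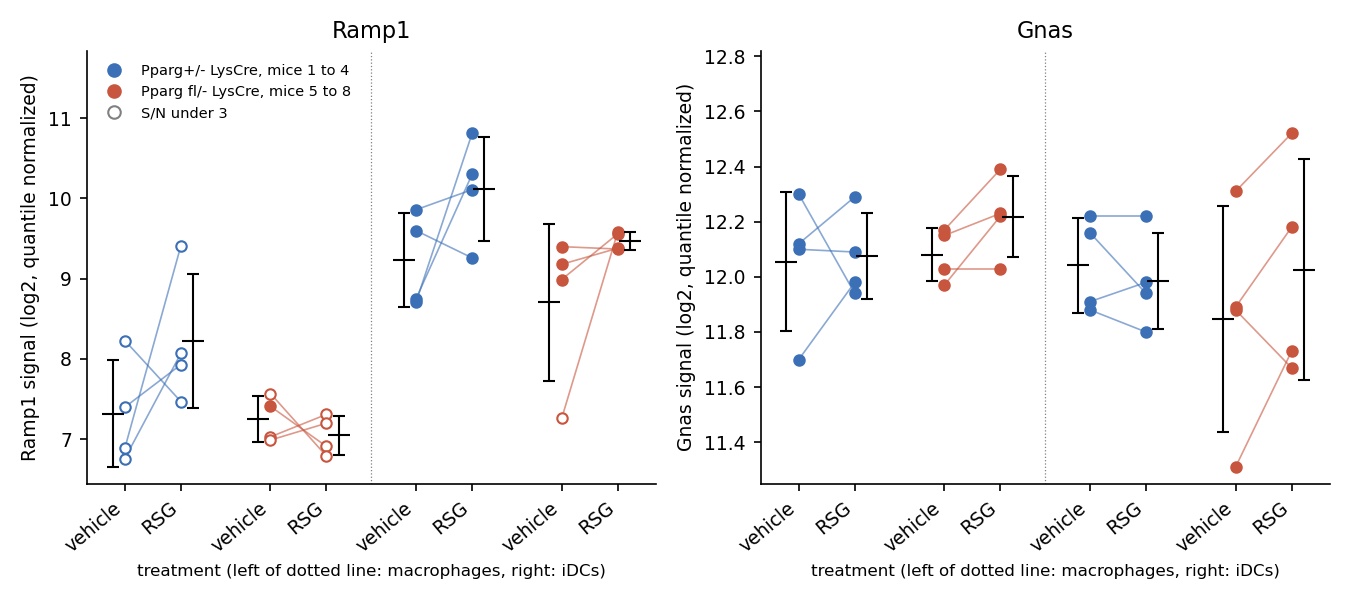
Signal of Ramp1 (left) and Gnas (right) on the 32 arrays (log2, quantile normalized; the axes differ). Each point is the culture of 1 mouse, lines join the cultures of a mouse, open points have an S/N under 3, and black bars are the mean ± SD of 4 mice. Ramp1 was detected on 1 of 16 macrophage arrays and 15 of 16 iDC arrays, while the group means of Gnas lie between 11.85 and 12.22.

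Of 79 marker genes of macrophages, DCs and of other cells that bone marrow cultures could hold, 2 had a named probe, the eosinophil ribonuclease gene Ear1 and the alpha globin gene Hba-a1 of erythroid cells. Both belong to families with near-identical copies, so their signals may be shared with a related gene. Hba-a1 was at 12.43, 12.67 and 12.21 in the vehicle-treated macrophages of mice 6, 7 and 8, but at 8.59 in those of mouse 5 and at 7.92 to 8.27 in those of Pparg+/- LysCre mice, all 5 of them with an S/N under 3. The level of Hba-a1 thus differed among the Pparg fl/- LysCre mice in macrophages, where the Ramp3 level of mouse 5 (10.74) was the lowest of its group but close to that of mouse 7 (10.82). In vehicle-treated iDCs Hba-a1 was at 8.57 in mouse 5, at 9.59 to 11.09 in mice 6, 7 and 8 and at 9.35 to 10.88 in Pparg+/- LysCre mice, and Ramp3 of mouse 5 was the highest of all. With RSG, Hba-a1 of mouse 5 iDCs was listed at 7.23, with an S/N under 3. No change of Hba-a1 passed the test. The fitted log2 difference between genotypes in vehicle-treated macrophages was the largest, at 3.34 ± 0.89 (SE, adjusted p = 0.0761 from limma). That fit included mouse 5, at 8.59 far below mice 6, 7 and 8, and is not given without it. Between iDCs and macrophages of vehicle-treated Pparg+/- LysCre mice the fitted difference was 1.85 ± 0.86 (SE, adjusted p = 0.0903 from limma). Both are set against Pparg+/- LysCre macrophages with an S/N under 3, so they give only a bound. With RSG the fitted change was -0.83 ± 0.78 (SE, adjusted p = 0.612 from limma) in Pparg+/- LysCre iDCs.

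Ear1 was at 17.37 to 17.66 in vehicle-treated Pparg+/- LysCre macrophages, at 17.20 in mouse 5 and at 14.59 to 15.24 in mice 6, 7 and 8. In vehicle-treated iDCs it was at 14.21 to 15.59 in Pparg+/- LysCre mice and at 14.51 to 15.22 in Pparg fl/- LysCre mice. The fitted genotype difference of Ear1 in vehicle-treated macrophages was -2.12 ± 0.51 (SE, adjusted p = 0.0671 from limma) and was not called. That fit included mouse 5, at 17.20 far above mice 6, 7 and 8, and is not given without it. Ear1 was lower in iDCs than in macrophages of vehicle-treated Pparg+/- LysCre mice (log2 difference -2.56 ± 0.44, SE, adjusted p = 2.74e-05 from limma), where Ramp3 was higher in iDCs. With RSG, Ear1 rose in iDCs, where Ramp3 was lower. It reached 17.49 to 18.32 in Pparg+/- LysCre iDCs (log2 change 2.81 ± 0.31, SE, adjusted p = 8.53e-05 from limma) and 16.74 to 17.67 in Pparg fl/- LysCre iDCs (2.29 ± 0.31, SE, adjusted p = 0.0043 from limma, and 0.0565 without mouse 6). In macrophages, where Ramp3 was lower with RSG too, the Ear1 change was upward. In Pparg+/- LysCre macrophages it was 1.56, 1.81, 1.86 and 1.76 in mice 1, 2, 3 and 4, and the groups did not overlap. The fitted change of 1.75 ± 0.51 (SE) had an adjusted p of 0.136 from limma, of 0.00532 with the mouse as a block and of 0.00346 without mouse 5. The change was 0.76 ± 0.51 (SE, adjusted p = 1 from limma) in the macrophages of Pparg fl/- LysCre mice. Whether other cells, or fewer of them, have a part in the Ramp3 values was not tested.

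The genes whose pattern was most like that of Ramp3 were taken from the 157 other genes with a named probe in the background, by Pearson's r of the log2 signal over the 32 arrays. These are descriptions over arrays that share mice and culture conditions, and no p is given. The most alike was Stat5a (r = 0.90), which encodes a transcription factor activated by GM-CSF and other cytokines. It was at 12.42 ± 0.10 in macrophages and 13.59 ± 0.08 in iDCs of vehicle-treated Pparg+/- LysCre mice (SD, n = 4). It was followed by Zkscan17 (r = 0.88), Lrrk1 (r = 0.88), which encodes a kinase with leucine-rich repeats, Unkl (r = 0.86), C130050O18Rik (r = 0.85) and C130026I21Rik (r = 0.84). All 6 were higher in iDCs, by 1.49-fold (Unkl) to 2.72-fold (Lrrk1) on average over the 4 pairs of groups, and 184 unnamed probes of 16461 had a higher r than Stat5a, up to 0.97. Cell type took 83.7% of the Ramp3 sum of squares, so genes picked by a high or low r largely had to differ between cell types.

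The least alike were Tceal9 (r = -0.93), the histone gene H2bc13 (r = -0.89) and Lgals1 (r = -0.88), which encodes galectin-1. Their signal was higher in macrophages than in iDCs, by 8.14-fold, 3.57-fold and 3.85-fold on average. Tceal9 was at 18.27 ± 0.26 in macrophages and 14.41 ± 0.08 in iDCs of vehicle-treated Pparg+/- LysCre mice (SD, n = 4), and at 15.46 ± 0.16 (SD, n = 4) in their RSG-treated iDCs, where Ramp3 was lower than with vehicle.

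Once the group means were taken off, little of this likeness was left. The r over deviations from the 8 group means was 0.05 for Stat5a, 0.42 for Zkscan17, -0.34 for Lrrk1, 0.31 for Unkl, -0.02 for C130050O18Rik and 0.00 for C130026I21Rik. For the least alike it was -0.05 for Tceal9, 0.43 for H2bc13 and 0.22 for Lgals1. Within the 16 iDC arrays alone, r was 0.78 for C130050O18Rik, 0.63 for C130026I21Rik, 0.45 for Stat5a, 0.07 for Zkscan17, 0.04 for Unkl and -0.26 for Lrrk1, and -0.80 for Tceal9, -0.41 for H2bc13 and 0.31 for Lgals1. The sign for Lrrk1 and Lgals1 was thus opposite to that over all 32 arrays. Within the 16 macrophage arrays r ran from -0.37 (C130050O18Rik) to 0.51 (Unkl) for the 6 genes most alike and from -0.39 (Lgals1) to 0.29 (H2bc13) for the 3 least alike.

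**Figure D5:**
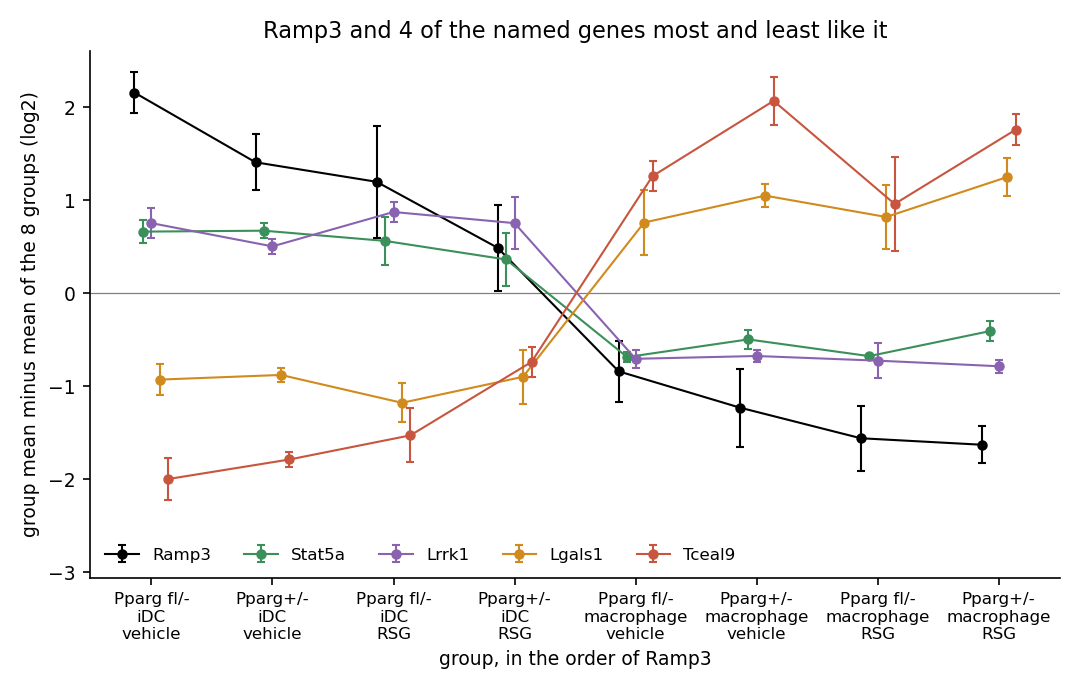
Group means (± SD, 4 mice each) of Ramp3, of Stat5a and Lrrk1, which are among the named genes most like it, and of Lgals1 and Tceal9, among the least like it. Values are log2 signals minus the mean of the 8 group means, in the order of the Ramp3 means. Lines only guide the eye. All 5 genes separate iDCs (left) from macrophages (right), with Stat5a and Lrrk1 on the side of Ramp3 and Lgals1 and Tceal9 on the other. This largely follows from their being picked by r with Ramp3 over the same arrays.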

How the data were processed

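The authors deposited 1 table per array, made from single-color chemiluminescence scans, holding a background-corrected signal per probe (linear intensity), its S/N, quality flags and an assay-normalized signal. Per the file headers the S/N is a score per probe, and where it is 1 or less the listed signal is only the noise estimate. The authors also deposited a table of linear ratios for all arrays (signal over a number per array and the probe's median), used as an alternative. That number matched the array's median signal to within 0.0023 (log2) on all 32 arrays.

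Signals were log2 transformed and quantile normalized over 32 arrays. Probes with an S/N of at least 3 on at least 3 arrays of a group of 4 (16620 of 33012) were kept. Of all probes, 317 had 1 RefSeq symbol (GRCm38.p6). Group means were fitted with limma 3.58.1 (R 4.3.3), on the 16 arrays of a cell type or, for cell type, on all 32, and tested on simulated data. The simulated arrays had independent noise, so they cannot show how the fit does where arrays of a mouse are alike. Python 3.11.15 (pandas 2.3.3, numpy 2.4.6) made the tables. Equal numbers mark the same mouse. Deviations from group means correlated with a median r of 0.284 (0.00953 to 0.623) between the vehicle and RSG arrays of a mouse, and of -0.0909 between mice. Deviations sum to 0 over the 4 mice of a group, so the value between mice is tied to the first and is no independent baseline. The main fits had no mouse block, and the blocked fit was an alternative.

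Ramp3 and the gene lists were chosen with earlier results of these data known. Named genes were Ramp3, the 6 genes with the highest and the 3 with the lowest r, and every listed gene with a probe. Alternatives were median scaling, no scaling, the deposited ratios, the assay-normalized signal, an offset, other filters and thresholds, the methods' t-test, a block for mouse or scan day, and each mouse left out in turn. Giving values without mouse 5 in the text was decided after seeing the data.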

Additional observations from a re-analysis of the deposited data

Results flagged for a closer look

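Among 48 sets of 4 values (16 of Ramp3 levels or within-mouse differences, the others of levels of Ramp1, Gnas, Ear1 and Hba-a1), 5 had a value far from the other 3, measured as its gap to the nearest value over the whole range. For the sets of the other genes, chance gives about 1 in 20. The Ramp3 sets are listed as a description with no test, because Ramp3 was chosen by these same values. For the RSG change of Ramp3 in Pparg fl/- LysCre macrophages this gap was 0.868, with mouse 7 at -0.29 and the others at -0.91 to -0.83. It was the only 1 of the 16 Ramp3 sets with so large a gap. For Hba-a1 in Pparg fl/- LysCre mice, mouse 5 was the low value each time, with a gap of 0.886 in vehicle-treated macrophages, 0.915 in RSG-treated macrophages and 0.833 in RSG-treated iDCs (7.23 against 10.37 to 11.00). For Ear1 the gap was 0.839 in macrophages of Pparg+/- LysCre mice with RSG, mouse 3 being at 19.53 and the others at 19.18 to 19.23.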

How the results depend on the processing

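Among the 16 Ramp3 differences, 1 moved by more than the spread between mice in the settings that could change it, the genotype difference in vehicle-treated iDCs (0.75 as reported, 1.03 without scaling between arrays). The signs of the RSG changes and the cell type differences were the same in every setting run, the RSG changes without each mouse being -0.59 to -0.29 and -0.86 to -0.66 in macrophages and -1.16 to -0.71 and -1.24 to -0.64 in iDCs of Pparg+/- LysCre and Pparg fl/- LysCre mice. Signs turned for the genotype difference in RSG-treated macrophages (-0.03 to 0.24 without each mouse), for the genotype difference in RSG change in iDCs (-0.31 to 0.29) and for the cell type difference in RSG change in Pparg fl/- LysCre mice (-0.45 to 0.02). The cause was not tested. Values with an S/N under 3 did not occur for Ramp3, and the setting with each probe alone was not run because only 1 probe could be named as Ramp3. Whether unnamed probes also read Ramp3 is not known. The pathway genes called were 0 in each RSG and genotype comparison and 1 for cell type under all 15 settings, the mouse as a replicate block (0 and 1) and the scan day as a block included. The cell type call is that of Ramp1, which passed the filter of the main fit through iDC groups alone. It is a description, beside 28.9% of all probes called in that fit. No call on Ramp1 or Gnas changed under the block. With the mouse as a block, Ear1 was called for RSG in Pparg+/- LysCre macrophages also, and by the methods' test in those but not in Pparg fl/- LysCre iDCs (adjusted p = 0.171). Without each mouse, the lower bound on the Ramp1 cell type difference in vehicle-treated Pparg+/- LysCre cells ran from 1.51 to 2.38 (log2). The signal over background limits Ramp1 in macrophages, where 15 of 16 arrays had an S/N under 3.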
